A study of Mus musculus with 18 samples.

Results

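The 5 genes described here encode membrane proteins that move anions, bicarbonate, protons or sodium: Slc26a9, Slc4a4, Otop1, Slc4a7 and Slc12a2. They were taken by symbol from the 35976 symbols counted in each library, because earlier results of the same libraries had shown large differences between the arms for some of them, and the others belong to the same acid-base and ion transport machinery. The arms are 4T1 cells, a mouse mammary carcinoma line of BALB/c origin labelled as triple-negative breast cancer, that expressed either a hairpin against Dap5 (shDap5) or a non-silencing hairpin (NSi). Cells of both arms received doxycycline at 2 µg/ml for 6 days to induce the hairpin. PolyA RNA was sequenced from whole lysate (input), from light polysomes, which carry mRNAs with few ribosomes, and from heavy polysomes, which carry those with many. There were 3 libraries in each of the 6 groups of arm and fraction, 18 in all. Each arm is a single line as far as the labels say and uninduced cells were not sampled, so that a difference present before induction and a response to the hairpin cannot be told apart. The labels do not tell whether the 3 libraries of a group are independent cultures, and the p-values therefore speak only of library-to-library spread, possibly technical.

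Epithelial and tumour cells make acid continuously and keep their cytosol near neutral by exporting protons and importing bicarbonate. Carriers of the Slc4 family couple bicarbonate to sodium or exchange it for chloride, those of the Slc26 family carry chloride and bicarbonate, and carriers of the Slc12 family move chloride together with sodium or potassium. Otopetrins are proton channels. Carbonic anhydrases interconvert carbon dioxide and bicarbonate and so feed these carriers with substrate.

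Promoter sequence is shown for the 3 genes whose levels differed most between the arms. Each run is the 250 bases before an annotated start, taken from RefSeq on GRCm38.p6, plus strand, 5′ to 3′. A window was at hand for 4 of the 5 genes, and Slc4a4 has 2 because it has 2 annotated starts. Capitals mark matches on either strand to 4 motifs. The TATA box was searched as TATAAA. The CCAAT box was searched by the letters of its name. The GC box was searched as GGGCGG. The E-box was searched as CAGGTG, letters that the Zeb and Snail repressors of epithelial genes are known to bind.
Slc26a9 (chr1:131743772-131744021): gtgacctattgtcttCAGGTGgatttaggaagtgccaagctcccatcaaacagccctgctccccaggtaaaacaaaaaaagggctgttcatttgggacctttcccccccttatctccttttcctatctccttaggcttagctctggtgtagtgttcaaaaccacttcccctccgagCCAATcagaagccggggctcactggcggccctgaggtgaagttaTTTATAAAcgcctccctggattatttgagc
Slc4a4, upstream start (chr5:88887010-88887259): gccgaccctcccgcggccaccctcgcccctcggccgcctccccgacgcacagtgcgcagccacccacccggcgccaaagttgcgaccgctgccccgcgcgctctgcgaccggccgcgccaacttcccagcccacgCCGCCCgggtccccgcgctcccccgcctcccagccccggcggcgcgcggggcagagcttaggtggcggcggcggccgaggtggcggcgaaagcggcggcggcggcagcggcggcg
Slc4a4, downstream start (chr5:89027716-89027965): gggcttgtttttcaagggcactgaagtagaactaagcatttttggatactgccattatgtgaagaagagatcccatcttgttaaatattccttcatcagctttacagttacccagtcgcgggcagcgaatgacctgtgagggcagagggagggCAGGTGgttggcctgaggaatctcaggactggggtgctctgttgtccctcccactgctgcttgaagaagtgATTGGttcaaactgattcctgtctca
Otop1 (chr5:38277154-38277403): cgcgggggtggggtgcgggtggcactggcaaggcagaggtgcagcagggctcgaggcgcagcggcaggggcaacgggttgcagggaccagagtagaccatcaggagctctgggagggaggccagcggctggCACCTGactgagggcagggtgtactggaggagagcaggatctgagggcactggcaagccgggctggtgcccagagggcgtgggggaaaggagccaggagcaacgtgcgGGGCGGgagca

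The windows differ in base makeup. The upstream start of Slc4a4 lies in 82% G and C with 44 CpG, against a median of 52.4% and 6 CpG over 32851 windows of the same length, and more than 99.3% of windows held less G and C. Otop1 stands at 70% with 13 CpG, Slc26a9 at 50% with 4, and the downstream start of Slc4a4 at 48.8% with 3. Slc26a9 has a TATA box match 28 bases before its start, overlapping a match on the other strand, and a CCAAT box match 74 bases before it. The window of Slc4a7, not printed, is alike in this. It has a TATA box match 29 bases before the start and a CCAAT box match, on the other strand, 69 bases before it. Among all windows 12.4% hold the TATA box letters, 33.8% those of the CCAAT box, 32.7% those of the GC box and 17.2% those of the E-box. The E-box letters occur in the windows of Slc26a9, the downstream start of Slc4a4 and Otop1, and also in that of Slc4a7, whose level hardly differed between the arms. Counts per symbol do not separate the 2 starts of Slc4a4.

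Total counts ran from 30385863 to 71331978 per library, and all 5 genes were among the 15072 that passed the filter on low counts. Eif4g2, which encodes DAP5, stood in shDap5 at 66.5% of its NSi level in input, 33.0% on light and 36.5% on heavy polysomes. The difference passed the edgeR test on light (adjusted p = 0.00204) and heavy polysomes (adjusted p = 0.00349) and missed it in input (log2 -0.59, adjusted p = 0.202), where it passed with a replicate block within fraction (log2 -0.64, edgeR adjusted p = 0.00454). Of 9 markers of the carcinoma cells, 8 were above 1 CPM (counts scaled to a common library size with the TMM method) in the inputs of either arm, and Krt5 had 0 counts in all 6 inputs. Their summed level was 3407 to 3977 CPM in shDap5 and 2278 to 2593 CPM in NSi inputs. Summed markers in shDap5 and NSi inputs were 35.4 to 73.7 and 55.2 to 62.9 CPM for 6 macrophage genes, 23.4 to 30.6 and 30.9 to 40.5 CPM for 6 fibroblast genes and 0.867 to 1.5 and 2.41 to 3.31 CPM for 6 endothelial genes. They were 0.131 to 0.631 and 0.265 to 0.281 CPM for 6 lymphocyte genes and 0.442 to 0.834 and 2.70 to 3.07 CPM for 6 adipocyte genes. Pdgfra made most of the fibroblast sum (means of 25.3 and 35.0 CPM), with Lum at 0 counts and Col1a1, Col1a2, Dcn and Pdgfrb under 1 CPM. Of the macrophage genes Cd68 averaged 24.6 and 43.0 CPM, Cd14 15.4 and 13.1 CPM and Csf1r 10.5 and 2.26 CPM. Lyz2 and Itgam were under 1 CPM, and Adgre1 had 5 counts over all 6 inputs. The part of these shifts in the results was not tested. In bulk RNA, fewer cells that express a gene and less of its RNA per cell cannot be told apart.

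Slc26a9, a chloride transporter and channel of airway and gastric epithelium, stood further apart between the arms in input than any other of the 5 genes. In input it had 10.8, 7.15 and 9.82 CPM in shDap5 libraries 1, 2 and 3, against 0.921, 0.820 and 0.701 CPM in NSi libraries. On light polysomes it had 6.77, 5.95 and 12.7 CPM in shDap5, against 1.78, 0.420 and 2.93 CPM in NSi. On heavy polysomes it had 6.53, 5.85 and 11.6 CPM in shDap5, against 2.14, 1.10 and 2.33 CPM in NSi. Every shDap5 library lay above every NSi library of its fraction, by mean ratios of 11.4, 4.97 and 4.30 in input, light and heavy. The NSi values rest on 45 to 59 counts in input and on as few as 14 on light polysomes, so they carry the largest counting error of the set. As a log2 difference, shDap5 against NSi was 3.5 (SE 0.50) in input, 2.30 (SE 0.48) on light and 2.10 (SE 0.48) on heavy polysomes. The light value was 2.93 without the NSi libraries numbered 3 and 1.86 without those numbered 2.

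Slc4a4, the sodium bicarbonate cotransporter NBCe1 that brings bicarbonate into or out of epithelial cells, differed by nearly the same ratio in every fraction. Input levels were 26.2, 40.2 and 23.8 CPM in shDap5 libraries 1, 2 and 3, against 6.85, 5.63 and 7.04 CPM in NSi libraries. Light polysome levels were 12.3, 23.9 and 15.4 CPM in shDap5, against 3.02, 4.2 and 3.46 CPM in NSi. Heavy polysome levels were 16.8, 39.7 and 18.2 CPM in shDap5, against 6.25, 6.22 and 4.57 CPM in NSi. The arms did not overlap in any fraction, and the shDap5 library numbered 2 was the highest of its group each time. The log2 difference was 2.21 (SE 0.32), 2.28 (SE 0.33) and 2.13 (SE 0.32) in input, light and heavy, and 1.94, 1.96 and 1.63 without the shDap5 libraries numbered 2.

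Otop1, which encodes the otopetrin proton channel first studied in the inner ear and in sour taste cells, was the gene of the set that stood lower in shDap5. Its input CPM were 1.92, 2.68 and 2.40 CPM in shDap5 libraries 1, 2 and 3, against 10.7, 11.5 and 10.5 CPM in NSi libraries. Its light polysome CPM were 0.729, 2.08 and 2.18 CPM in shDap5, against 5.30, 8.73 and 8.99 CPM in NSi. Its heavy polysome CPM were 2.18, 2.34 and 3.09 CPM in shDap5, against 7.50, 12.8 and 15.2 CPM in NSi. The lowest NSi library stood above the highest shDap5 library in each fraction. The mean in shDap5 was 21.5%, 21.7% and 21.4% of that in NSi in input, light and heavy, with log2 differences of -2.22 (SE 0.34), -2.20 (SE 0.35) and -2.22 (SE 0.34). Otop1 is also known from brown fat, and of the adipocyte markers Fabp4 averaged 0.504 CPM in shDap5 and 2.73 CPM in NSi inputs, and Cidea, a brown fat gene, averaged 0.0226 CPM in shDap5 and 0.173 CPM in NSi inputs (37 counts over all 6). Adipoq, Plin1, Ucp1 and Lep had 0 to 8 counts over all 6 inputs. Of these, Plin1 (0.0348 CPM in shDap5 and 0.00519 CPM in NSi) and Adipoq (0.0131 and 0.0106 CPM) averaged higher in shDap5. Ucp1 averaged lower (0 and 0.0104 CPM). The part of adipocyte genes in the difference of Otop1 was not tested.

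Slc4a7, the electroneutral sodium bicarbonate cotransporter NBCn1 known as an acid extruder of breast cancer cells, had similar levels in the arms. Inputs held 99.7, 100.1 and 114 CPM in shDap5 libraries 1, 2 and 3, against 108, 91.7 and 112 CPM in NSi libraries. Light polysomes held 21.5, 39.7 and 20.5 CPM in shDap5, against 24.2, 38.2 and 24.4 CPM in NSi. Heavy polysomes held 31.2, 67.8 and 24.5 CPM in shDap5, against 40.0, 64.4 and 30.8 CPM in NSi. The arms overlapped in every fraction, and on polysomes the library numbered 2 was the highest in both arms. The log2 difference between shDap5 and NSi was 0.0055 (SE 0.34), -0.085 (SE 0.34) and -0.13 (SE 0.34) in input, light and heavy, and on heavy polysomes it moved to -0.69 without the shDap5 libraries numbered 2 and to 0.22 without the NSi libraries numbered 2.

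Slc12a2, the sodium potassium chloride cotransporter NKCC1 that loads epithelial cells with chloride, had a smaller difference, with a higher mean in shDap5 in every fraction. The inputs read 248, 162 and 266 CPM in shDap5 libraries 1, 2 and 3, against 159, 135 and 170.3 CPM in NSi libraries. The light polysomes read 98.5, 80.5 and 87.3 CPM in shDap5, against 75.9, 73.3 and 61.9 CPM in NSi. The heavy polysomes read 117, 151 and 78.5 CPM in shDap5, against 102, 127 and 64.3 CPM in NSi. The arms overlapped in input through the shDap5 library numbered 2 and also on heavy polysomes, and they did not overlap on light polysomes. The log2 difference was 0.54 (SE 0.25), 0.34 (SE 0.25) and 0.24 (SE 0.25) in input, light and heavy, and 0.73 in input without the shDap5 input numbered 2. The heavy value was -0.00057 without the shDap5 libraries numbered 2, 0.0091 without the NSi libraries numbered 3, 0.45 without the shDap5 libraries numbered 3 and 0.48 without the NSi libraries numbered 2.

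**Figure D1:**
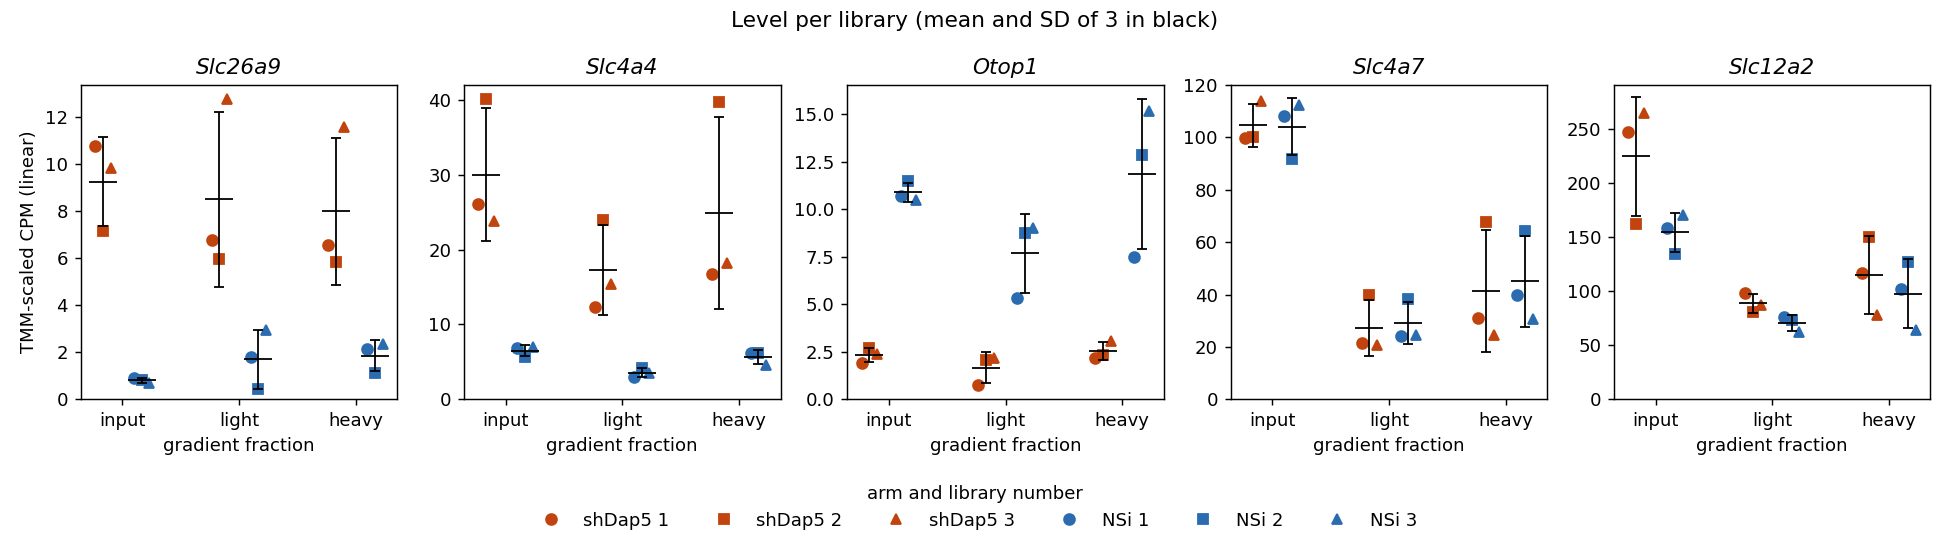
Level of each gene in TMM-scaled CPM on a linear axis (vertical) by gradient fraction (horizontal), with 1 point per library, its number given by the marker, and the mean and SD of the 3 libraries in black; shDap5 stands left of NSi. In input Slc26a9 lies at 7.15 to 10.8 CPM in shDap5 and 0.701 to 0.921 CPM in NSi, Otop1 lies lower in shDap5 in every fraction, and the libraries numbered 2 are the highest for Slc4a7 on polysomes in both arms.

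These differences between the arms are a description, since the genes were chosen on that contrast, and no test is given for them. For scale, libraries of the arms did not overlap for 37% of tested genes in input, 19.9% on light and 15.7% on heavy polysomes, and edgeR called 6.95%, 3.47% and 3.95% of all tested genes. Among the 15072, Slc26a9 held rank 7 of the largest log2 increases in input, rank 35 on light and rank 138 on heavy polysomes. Slc4a4 held rank 75, 38 and 133. Otop1 held rank 171, 132 and 134 of the largest decreases. Slc12a2 and Slc4a7 mark the other edge of the set, with Slc12a2 at rank 1436 of the increases in input and Slc4a7 at rank 8389.

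The change of the arm difference along the gradient was near 0 for Otop1 and Slc4a4. The difference on heavy polysomes minus that in input, in log2 units, was 0.0044 (SE 0.45) for Otop1 and -0.072 (SE 0.44) for Slc4a4, -0.13 (SE 0.48) for Slc4a7 and -0.31 (SE 0.35) for Slc12a2. For Slc26a9 it was -1.41 (SE 0.66) on heavy and -1.20 (SE 0.66) on light polysomes, and the light value was -0.48 without the NSi libraries numbered 3. Without the shDap5 libraries numbered 2 the heavy value was -0.73 for both Slc4a7 and Slc12a2, and that of Slc4a7 was 0.29 without the NSi libraries numbered 2. Both subtractions use the same input levels. These values too come from the contrast that chose the genes and were not tested.

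**Figure D2:**
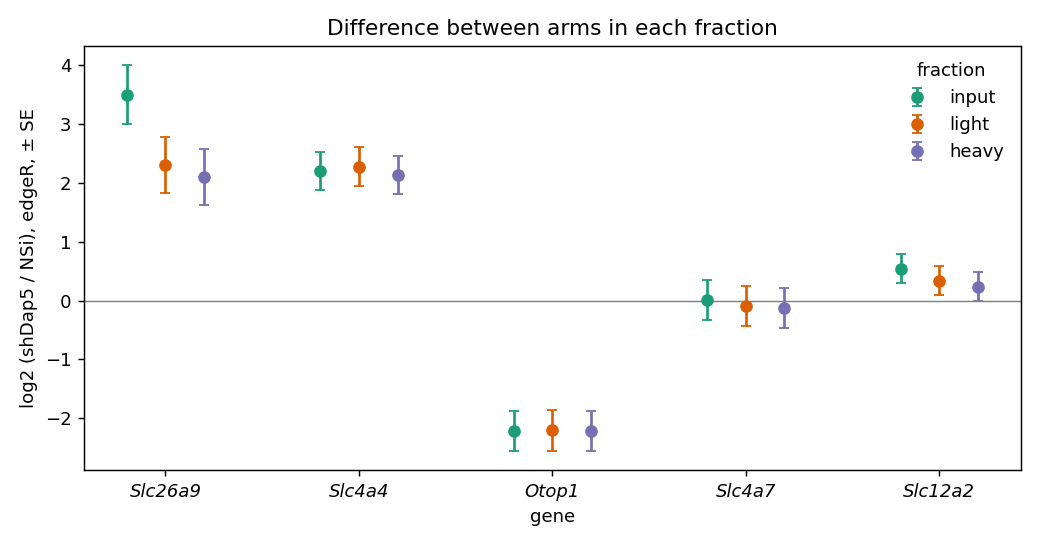
Log2 difference between shDap5 and NSi with its SE (vertical) for each gene (horizontal), 1 point per gradient fraction, from the edgeR fit. Slc4a4 and Otop1 keep their values across fractions (2.13 to 2.28 and -2.22 to -2.20), Slc26a9 stands at 3.5 in input and 2.10 on heavy polysomes, and Slc4a7 stays near 0.

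Levels can be set against each other only per length. Per kilobase of annotated exon, with exons merged over transcripts of the GENCODE annotation of GRCm38, Slc12a2 stood highest in inputs of both arms, at 20.6 ± 5.04 CPM per kilobase in shDap5 and 14.2 ± 1.67 in NSi (SD, n = 3 each). Slc4a7 followed with 6.88 ± 0.529 in shDap5 and 6.85 ± 0.721 in NSi. Below them the order differed between the arms. In shDap5 inputs Slc4a4 stood at 2.78 ± 0.819, Slc26a9 at 1.77 ± 0.359 and Otop1 at 0.678 ± 0.112 CPM per kilobase, and the first of these overlapped the second within their SD. In NSi inputs Otop1 stood at 3.16 ± 0.149, Slc4a4 at 0.602 ± 0.071 and Slc26a9 at 0.156 ± 0.0211. Lengths are of another build than the counts, and merged exons understate genes with many alternative exons such as Slc4a4.

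Where an mRNA sits on the gradient within an arm is another contrast than the one that chose the genes, and it was tested. The contrasts share group levels, so these p-values are not free of the choice of genes. For a gene such as Slc26a9, a low level in NSi input raises both the arm difference in input and the NSi ratios of polysomes to input. Slc4a7 and Slc12a2 were lower on polysomes than in input in both arms, Slc4a4 was lower on light polysomes than in input, and Otop1 and Slc26a9 did not pass in the fit without a block. Slc4a7 fell on light polysomes to 27.3 ± 10.8 CPM, against 104.5 ± 8.04 CPM in input, in shDap5 (log2 -1.94, SE 0.35, edgeR adjusted p = 0.00021). In NSi it fell to 29.0 ± 8.03 CPM on light polysomes, against 104.2 ± 11 CPM in input (log2 -1.85, SE 0.35, edgeR adjusted p = 0.000317). That ratio had rank 299 from the lowest among 15072 genes in shDap5 and rank 225 in NSi. On heavy polysomes Slc4a7 stood at 41.2 ± 23.3 CPM in shDap5 (log2 -1.35 against input, SE 0.34, edgeR adjusted p = 0.00368) and at 45.0 ± 17.3 CPM in NSi (log2 -1.21, SE 0.34, adjusted p = 0.00769).

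Slc12a2 fell on light polysomes to 88.8 ± 9.11 CPM, against 225 ± 55.1 CPM in input, in shDap5 (log2 -1.34, SE 0.25, edgeR adjusted p = 0.000286). In NSi it fell to 70.4 ± 7.43 CPM on light polysomes, against 155 ± 18.3 CPM in input (log2 -1.14, SE 0.25, edgeR adjusted p = 0.00114). On heavy polysomes Slc12a2 was at log2 -0.96 against input in shDap5 (SE 0.25, edgeR adjusted p = 0.00396) and at -0.66 in NSi (SE 0.25, adjusted p = 0.0371). Slc4a4 on light polysomes was at log2 -0.80 against input in shDap5 (SE 0.31, edgeR adjusted p = 0.0359) and at -0.87 in NSi (SE 0.32, adjusted p = 0.0298). On heavy polysomes its level was close to that in input, at log2 -0.27 (SE 0.30) in shDap5 and -0.20 (SE 0.31) in NSi. Otop1 on light polysomes was at log2 -0.49 against input in shDap5 (SE 0.34, edgeR adjusted p = 0.245) and -0.50 in NSi (SE 0.32, adjusted p = 0.199).

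Slc26a9 was the gene whose place on the gradient looked different between the arms, a difference that was not tested. On light polysomes it was at log2 -0.13 against input in shDap5 (SE 0.45, edgeR adjusted p = 0.833) and 1.07 in NSi (SE 0.49, adjusted p = 0.0747). On heavy polysomes it was at -0.21 against input in shDap5 (SE 0.44, edgeR adjusted p = 0.727) and 1.20 in NSi (SE 0.49, adjusted p = 0.0526). The heavy value in NSi passed by DESeq2 (adjusted p = 0.0409), and its edgeR adjusted p without a block ran from 0.017 with the compared libraries alone to 0.237 without the NSi libraries numbered 3. The light value in NSi was 1.53 without the NSi libraries numbered 2 (edgeR adjusted p = 0.0123) and 0.35 without those numbered 3 (0.656).

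Calls of fractions against each other were common, so a call by itself sets no gene apart. EdgeR called 53.2% of tested genes for light against input in shDap5 and 51.4% in NSi, and 47.8% and 46.6% for heavy against input. For light against input 3 of the 5 genes were called in each arm, all lower, where 26.8% of genes in shDap5 and 24.7% in NSi were lower. For heavy against input 2 of the 5 were called in each arm, both lower, where 21.2% of genes in shDap5 and 20.2% in NSi were lower. The light calls of Slc4a7 and Slc12a2 held with any arm and number left out (edgeR adjusted p of at most 0.0114 and 0.0151). Other calls did not. Slc4a7 on heavy polysomes lost its call in shDap5 without the shDap5 libraries numbered 3 (edgeR adjusted p = 0.0525), and in NSi without the NSi libraries numbered 1 (0.0781) or 3 (0.10). Slc12a2 on heavy polysomes lost it in shDap5 without the shDap5 libraries numbered 3 (edgeR adjusted p = 0.102) and in NSi without NSi 1 (0.140), NSi 3 (0.347) or shDap5 1 (0.061). Slc4a4 on light polysomes lost it in shDap5 without any of the numbers except shDap5 2, with the highest edgeR adjusted p at 0.123 without shDap5 1, or 0.173 without the shDap5 input numbered 2 alone. In NSi it lost the call without NSi 1 (edgeR adjusted p = 0.191) or NSi 3 (0.142).

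Between heavy and light polysomes 4 of the 5 genes leaned towards heavy in both arms. The 93 other transport genes described below leaned the same way, with a median log2 ratio of 0.25 in shDap5 and 0.37 in NSi. Over all tested genes the medians were 0.013 and -0.028. The log2 ratio of heavy to light was 0.53 (SE 0.31) in shDap5 and 0.67 (SE 0.32) in NSi for Slc4a4, 0.61 (SE 0.35) and 0.63 (SE 0.32) for Otop1, 0.59 (SE 0.34) and 0.64 (SE 0.34) for Slc4a7, and 0.38 (SE 0.25) and 0.48 (SE 0.25) for Slc12a2. Slc26a9 stood at -0.081 (SE 0.45) and 0.13 (SE 0.48). EdgeR called 0 of the 5 genes in either arm, with 0 at an unadjusted p under 0.05 and 0 by DESeq2, where it called 44.5% of all tested genes in shDap5 (24.3% higher) and 52.6% in NSi. Heavy and light libraries of the same arm and number deviated together. A replicate block within arm uses that pairing but also ties in the input of the same number. Deviations of inputs correlated with those of polysomes at -0.324 to 0.470, so that part of the block is not borne out. With it 2 of the 5 genes passed in each arm, where that fit called 50% of all tested genes in shDap5 and 57.6% in NSi. These were Otop1 (edgeR adjusted p = 0.0495 in shDap5 and 0.0415 in NSi) and Slc4a4 (0.042 in shDap5 and 0.00878 in NSi). With replicate number alone as a block, which called 51.4% of all tested genes in shDap5 and 59% in NSi, Otop1 passed in shDap5 (edgeR adjusted p = 0.0367), and Otop1 (0.0299), Slc4a4 (0.0238) and Slc4a7 (0.0421) passed in NSi. Without the shDap5 libraries numbered 2, Slc4a4 (edgeR adjusted p = 0.00672) and Slc4a7 (0.0313) also passed in NSi.

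**Figure D3:**
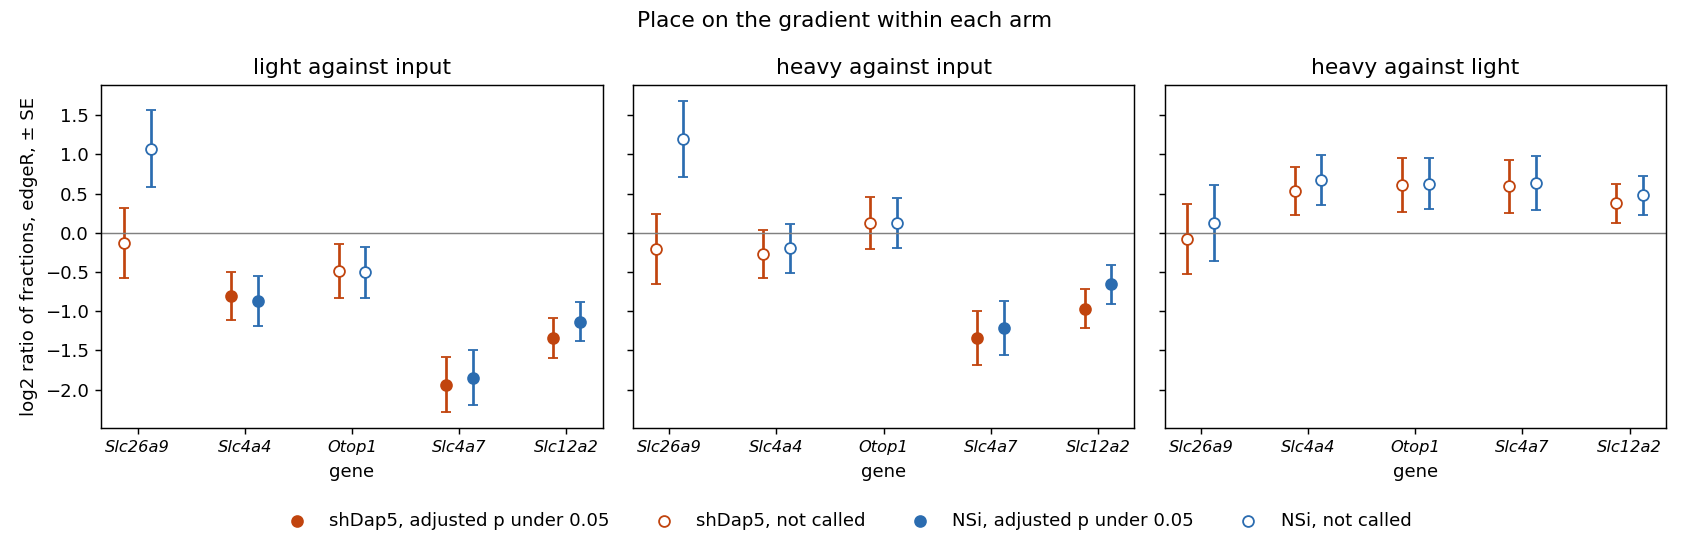
Log2 ratio between gradient fractions with its SE (vertical) for each gene (horizontal) within shDap5 and NSi, from the edgeR fit without a block; filled points have an adjusted p under 0.05. Slc4a7 and Slc12a2 lie lowest on light and heavy polysomes against input, and the 5 ratios of heavy to light are open circles in both arms.

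The other genes of acid-base and ion transport were taken from 11 lists with 136 symbols, of which 135 were in the files and 93 were tested. Carbonic anhydrases held 2 calls among 9 tested in each of the 3 fractions, the same 2 genes each time, both higher in shDap5. Chloride channels held 1 call among 14 tested in each fraction (7.14%, against 6.95%, 3.47% and 3.95% of all tested genes in input, light and heavy). The call was Lrrc8d in input and on light and Clcn7 on heavy polysomes. Proton channels and acid sensors held 2 calls among 6 tested in input and 1 on heavy polysomes. These calls of channels and sensors were all lower in shDap5. In input 3 of the 93 genes rose and 4 fell (7.53% called, against 6.95% of all tested genes), with a median log2 change of -0.11 beside 0.052 over all genes. On light polysomes 2 rose and 1 fell (3.23% against 3.47%), and on heavy polysomes 2 rose and 3 fell (5.38% against 3.95%), with medians of -0.12 and -0.14. In this fit the shares are near those of all genes. By direction, all tested genes were higher in 3.01%, 1.83% and 2.03% and lower in 3.94%, 1.64% and 1.92% of cases in input, light and heavy. Libraries of the same number deviated together across arms. With replicate number as a block edgeR called 13, 7 and 14 of the list genes in input, light and heavy (14%, 7.53% and 15.1%), against 11.9%, 6.72% and 7.44% of all tested genes. With a replicate block within fraction it called 25, 20 and 27 (26.9%, 21.5% and 29%), against 22.1%, 16.1% and 18.3% of all tested genes.

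Car5b, a mitochondrial carbonic anhydrase, rose in all 3 fractions. In input it had 98.8, 73.0 and 106.6 CPM in shDap5 libraries 1, 2 and 3, against 33.6, 33.6 and 33.7 CPM in NSi libraries (log2 1.46, SE 0.17, edgeR adjusted p = 4.18e-05). On light polysomes it averaged 51.0 ± 7.69 CPM in shDap5 and 20.3 ± 1.42 CPM in NSi (log2 1.33, SE 0.17, edgeR adjusted p = 0.000278). On heavy polysomes it averaged 85.1 ± 15.1 CPM in shDap5 and 37.7 ± 2.19 CPM in NSi (log2 1.18, SE 0.17, edgeR adjusted p = 0.000646). The arms did not overlap in any fraction. The edgeR calls held with any arm and number left out, and the heavy call was lost with the compared libraries alone (adjusted p = 0.0592).

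Car2, the fast cytosolic carbonic anhydrase, rose too, with 149 to 284 counts in shDap5 inputs, against 33 to 43 counts in NSi inputs. Its input libraries held 3.73, 2.44 and 3.44 CPM in shDap5 libraries 1, 2 and 3, against 0.515, 0.675 and 0.670 CPM in NSi libraries (log2 2.36, SE 0.47, edgeR adjusted p = 0.00448). It also rose on light (log2 1.79, SE 0.47, edgeR adjusted p = 0.0399) and heavy polysomes (log2 1.87, SE 0.48, adjusted p = 0.0366). The input call was lost without the NSi libraries numbered 1 (edgeR adjusted p = 0.0531). The light call was lost without NSi 1, NSi 2, shDap5 2 or shDap5 3 (0.191, 0.137, 0.0787 and 0.179) and the heavy call without NSi 1, NSi 2 or shDap5 3 (0.185, 0.196 and 0.165). The tumour-associated anhydrases Car9 and Car12, which face the outside of the cell, were not called in any fraction by the edgeR fit of all 18 libraries without a block. DESeq2 called Car9 on heavy polysomes (log2 -0.63, adjusted p = 0.0124). Car9 stood at log2 -0.081, -0.36 and -0.61 in input, light and heavy (edgeR adjusted p = 0.867, 0.332 and 0.0625), and on heavy polysomes the arms did not overlap, with 159 to 225 CPM in shDap5 and 279 to 290 CPM in NSi. Car12 stood at -0.63, -0.55 and -0.75 (edgeR adjusted p = 0.152, 0.293 and 0.11).

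Slc4a11, a member of the bicarbonate transporter family that is known to conduct protons, was the gene edgeR called among 4 tested relatives of Slc4a4 and Slc4a7 in input, where DESeq2 called 2. Of all tested genes edgeR called 6.95% there and DESeq2 9.48%. In input Slc4a11 had 72.7, 45.6 and 70.5 CPM in shDap5 libraries 1, 2 and 3, against 26.6, 20.7 and 24.4 CPM in NSi libraries (log2 1.40, SE 0.35, edgeR adjusted p = 0.02). On light and heavy polysomes it stood at log2 0.81 and 0.62 (edgeR adjusted p = 0.248 and 0.38). The other relative that DESeq2 called in input was Slc4a3, an anion exchanger (DESeq2 log2 -1.54, adjusted p = 0.0205, and edgeR adjusted p = 0.0613). On light and heavy polysomes 0 of the 4 relatives were called by edgeR, with 2 at an unadjusted p under 0.05 in each, and DESeq2 called 0 on light and 1 on heavy. The chloride bicarbonate exchanger Slc4a2 was at log2 0.044 in input (edgeR adjusted p = 0.931) and -0.57 on heavy polysomes (0.0751). The input call of Slc4a11 was lost without NSi 1, NSi 3, shDap5 1 or shDap5 3 (edgeR adjusted p = 0.0693, 0.0893, 0.125 and 0.0559).

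Lower in shDap5 was Hvcn1, the voltage-gated proton channel, at a level close to the detection limit. It had 5, 7 and 4 counts in shDap5 inputs 1, 2 and 3, against 27, 26 and 23 counts in NSi inputs (log2 -2.19, SE 0.51, edgeR adjusted p = 0.0122). On heavy polysomes it had 2, 6 and 5 counts in shDap5, against 9, 23 and 16 counts in NSi (log2 -2.28, SE 0.54, edgeR adjusted p = 0.0231). On light polysomes it stood at log2 -0.74 (SE 0.46, edgeR adjusted p = 0.481). Asic1, an acid-sensing sodium channel, averaged 2.00 ± 1.01 CPM in shDap5 and 6.49 ± 0.967 CPM in NSi inputs (log2 -1.70, SE 0.37, edgeR adjusted p = 0.00899). On light and heavy polysomes Asic1 stood at log2 -0.46 and -0.75 (edgeR adjusted p = 0.614 and 0.304). Both input calls were lost without shDap5 1 or shDap5 3 (edgeR adjusted p = 0.106 and 0.0735 for Hvcn1, 0.0824 and 0.0712 for Asic1). The heavy call of Hvcn1 was lost without NSi 2, shDap5 1 or shDap5 3 (0.208, 0.108 and 0.143).

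Smaller decreases came from single members of larger groups. Atp6v0e2, a subunit of the vacuolar proton pump, fell in input (log2 -0.96, SE 0.24, edgeR adjusted p = 0.0183). It was the 1 call among 21 tested pump subunits (4.76%, against 6.95% of all tested genes). On light and heavy polysomes it stood at log2 -0.61 and -0.14 (edgeR adjusted p = 0.186 and 0.816). Lrrc8d, a subunit of the volume-regulated anion channel, fell in input (log2 -0.50, SE 0.13, edgeR adjusted p = 0.0256) and on light polysomes (log2 -0.51, SE 0.13, adjusted p = 0.0374). Its value on heavy polysomes was close to these (log2 -0.45, SE 0.13, edgeR adjusted p = 0.0662), and DESeq2 called it there (adjusted p = 0.00486). Clcn7, the lysosomal chloride proton exchanger, fell on heavy polysomes (log2 -0.61, SE 0.16, edgeR adjusted p = 0.0433). In input and on light polysomes it stood at log2 -0.37 and -0.40 (edgeR adjusted p = 0.213 in each). Wnk4, a kinase that controls cation-chloride cotransporters such as Slc12a2, fell on heavy polysomes to 0.591 ± 0.179 CPM in shDap5, against 1.67 ± 0.632 CPM in NSi (log2 -1.47, SE 0.36, edgeR adjusted p = 0.0292). In input it stood at log2 -0.99 (edgeR adjusted p = 0.091, DESeq2 adjusted p = 0.0359) and on light polysomes at -0.51 (edgeR adjusted p = 0.534). Both calls of Lrrc8d were lost in each of the 6 fits that left out an arm and number, those of Wnk4 and Clcn7 in 5 of 6 and that of Atp6v0e2 in 3 of 6, at highest to an edgeR adjusted p of 0.158 for Atp6v0e2 without shDap5 1, 0.128 for Lrrc8d in input without NSi 1 and 0.254 on light polysomes without NSi 2, 0.242 for Clcn7 without NSi 2 and 0.182 for Wnk4 without NSi 2.

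Sodium-proton exchangers, Slc26 relatives, monocarboxylate transporters, the epithelial sodium channel with the sodium pump, and the IRBIT family held 27 tested genes in 5 lists. The edgeR fit of all 18 libraries without a block called 0 of them in every fraction. At an unadjusted p under 0.05 there were 5, 4 and 4 in input, light and heavy. DESeq2 called 1, 1 and 2 in these lists, where it called 9.48%, 6.41% and 6.01% of all genes. The 0 in input depended on the fit. With the compared libraries alone edgeR called 2 genes of the sodium-proton exchanger list, 1 Slc26 relative and 1 gene of the sodium channel and pump list in input. That fit called 15.2% of all tested genes there. Slc16a1, a lactate and proton carrier, averaged 212 ± 49.3 CPM in shDap5 and 176 ± 13.9 CPM in NSi inputs (log2 0.27, edgeR adjusted p = 0.509). Slc16a3, the lactate exporter of glycolytic cells, had 0 counts in every input.

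**Figure D4:**
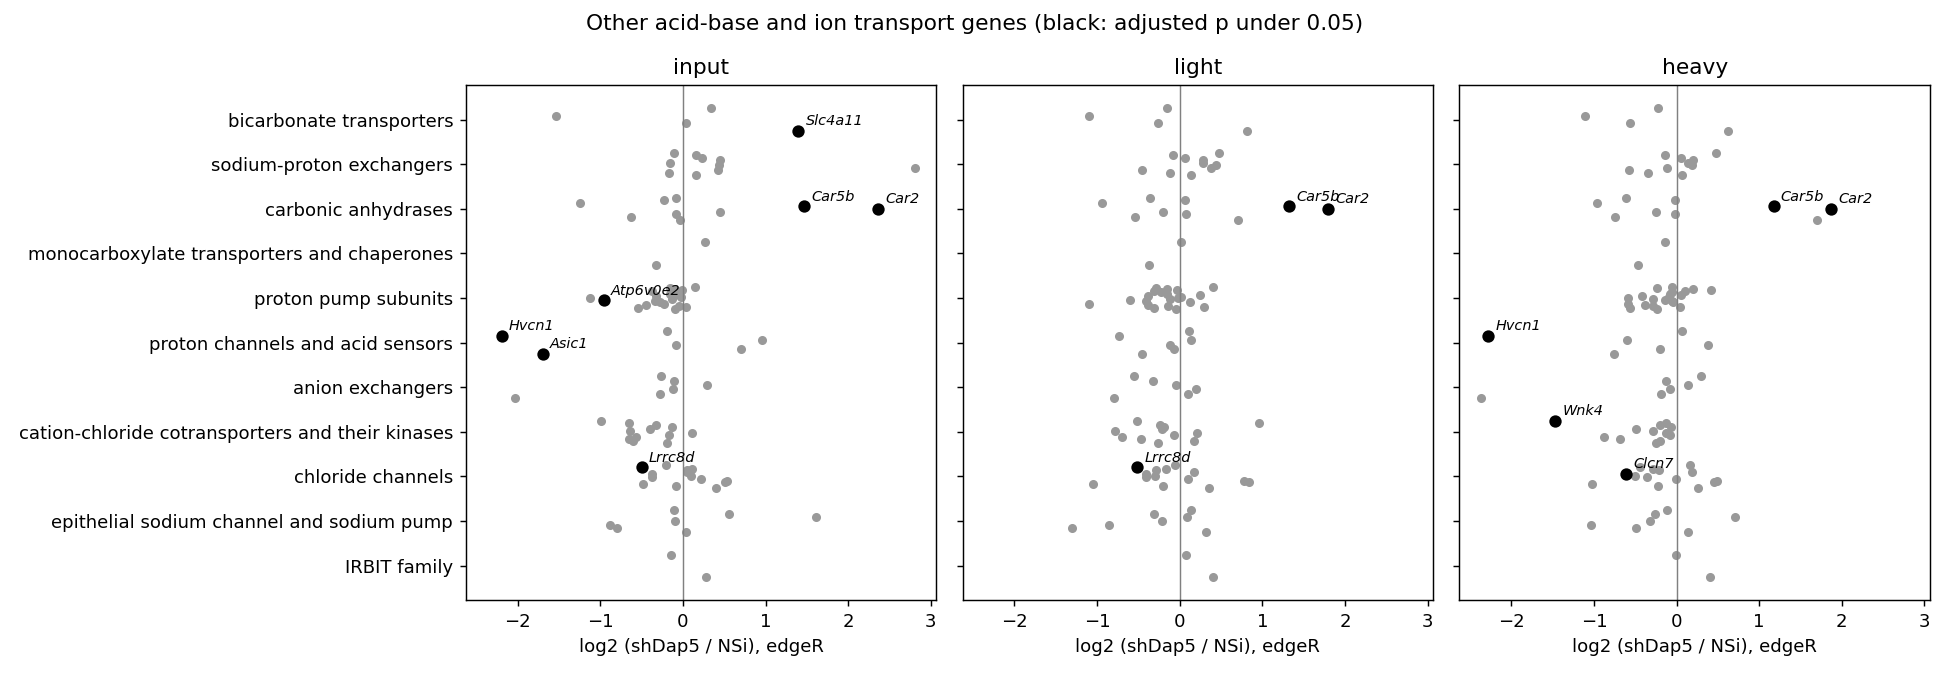
Log2 difference between shDap5 and NSi (horizontal) of the 93 tested genes of the 11 lists (rows), 1 panel per fraction; called genes are black and named, the others grey. Car5b and Car2 are black on the right in all 3 panels, and most grey points lie within 1 log2 unit of 0.

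On the gradient, 35 of the 93 list genes were lower and 18 higher on light polysomes than in input in shDap5 by edgeR (37.6% lower, against 26.8% of all tested genes), with a median log2 ratio of -0.32 beside -0.0037 over all genes. In NSi 33 were lower and 12 higher (35.5% lower, against 24.7% of all tested genes), with a median of -0.31 beside 0.015. For heavy against input 22 were higher and 20 lower in shDap5 (21.5% lower, against 21.2% of all tested genes). In NSi 24 were higher and 12 lower (12.9% lower, against 20.2% of all tested genes). Of all tested genes 26.7% were higher in shDap5 and 26.4% in NSi. Slc4a8, another sodium-coupled bicarbonate carrier, was at log2 -1.31 on light polysomes against input in NSi (SE 0.22, edgeR adjusted p = 0.000122), and Slc12a7, a potassium chloride cotransporter, at -0.96 (SE 0.15, adjusted p = 6.37e-05). Slc4a2 was at -0.024 (SE 0.17, edgeR adjusted p = 0.916).

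The genes with the most similar pattern over the 6 group means were ranked among 10308 genes with at least 5 CPM, by the root-mean-square difference of centred log2 levels. Closest to Slc4a7 was Atp2b1, a plasma membrane calcium pump, at 0.041 log2 units, followed by Tbc1d8b at 0.056 and Ano9 at 0.065. Closest to Slc12a2 were Ralgapa1 at 0.058, Cgn, the tight junction protein cingulin, at 0.069 and Adcy7, an adenylyl cyclase, at 0.072. Close to Otop1 were Hsd17b11, a lipid droplet dehydrogenase, at 0.17 and Ank2, an ankyrin, at 0.19. Slc4a4 had less close company, with Prom2, a protein of epithelial membrane protrusions, at 0.25 and Sox13, a transcription factor, at 0.26. Slc26a9 had the least close, with Cwh43 at 0.28, Plch2, a phospholipase C, at 0.32 and Cobl, an actin nucleator, at 0.37. The points of these patterns come from the same libraries.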

How the data were processed

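PolyA RNA was sequenced from input, light and heavy polysome RNA of 18 libraries. The deposited values are raw, unnormalized counts for each gene symbol in each library. Reads were aligned with Bowtie to mm9, per the submitters' processing notes; aligner version, counting program, annotation and strand setting: not given in the sources used here, so reads shared with antisense or near-identical genes are uncertain. Groups and replicate numbers came from the sample titles.

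Counts of all symbols were fitted together in R 4.3.3 with edgeR 4.0.16 (TMM scaling, filterByExpr, robust quasi-likelihood F test, 1 mean per group, 12 residual degrees of freedom), and p-values were adjusted by Benjamini-Hochberg over 15072 genes within a comparison. "Called" means an adjusted p under 0.05, and an SE is the size of the log2 change over the square root of F. CPM use TMM-scaled library sizes. A count of 0 allows up to 3 counts, or 0.0394 to 0.11 CPM, counting error only. Of the symbols 27 were written as dates; none is named. Replicate pairs all differed by more than sampling noise, with a chi-square of at least 8.82 times its degrees of freedom. Deviations from group means of same-numbered libraries correlated across 10308 genes at 0.138 to 0.826 between arms in every fraction and at 0.520 to 0.754 between heavy and light within an arm, but at -0.324 to 0.470 between input and polysomes, so the numbers were taken to pair the first 2 kinds. Promoter windows were read from RefSeq on GRCm38.p6 and the test was checked on simulated counts.

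The 5 genes and the lists were chosen with earlier results of these data known. Named besides are Eif4g2, the called genes of each list (up to 4 with the smallest p-values), and the 3 most similar genes for each; some genes under this rule are not reported here. Genes not called that are given with values were chosen after their values were seen. Alternatives were DESeq2 1.42.0, its size factors in edgeR, no filter, the compared libraries alone, replicate blocks and each arm and number left out; leaving out the shDap5 input numbered 2 alone was added after the data were seen.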

Additional observations from a re-analysis of the deposited data

How the results depend on the processing

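Of the differences between arms of the 5 genes and of their change along the gradient, 326 of 330 values under the other settings moved by less than 1 SD between replicates. That measure is lenient, since leaving out 1 of 3 libraries cannot move a group mean by as much as the SD of its group. The arm difference of Slc4a7 on heavy polysomes, counted as kept, ran from log2 -0.69 to 0.22. Of the tests of fractions against each other 327 of 360 kept their side of the threshold, 19 newly passed and 14 no longer passed. A change of sign was counted as kept where neither fit passed. Otop1 for heavy against input in NSi, for example, ran from log2 -0.12 to 0.35. Of the tests of list genes and Eif4g2, 54 of 215 no longer passed and 1 newly passed, that of Eif4g2 in input with a replicate block within fraction (log2 -0.64, edgeR adjusted p = 0.00454). No test reversed. Numbers did not pair input with polysomes; with replicate number as a block all 5 genes passed for light against input in NSi, Otop1 at log2 -0.56 (edgeR adjusted p = 0.0434) and Slc26a9, higher, at 0.88 (0.0453), where 57.3% of all tested genes were called, and Slc26a9 passed for heavy against input in NSi (1.10, 0.0163). Counts of genes called between the arms moved by more than 1.5 times under several settings. Over all tested genes in input, light and heavy it was 1047, 523 and 595, and became 1798, 1013 and 1122 with replicate number as a block, 3330, 2431 and 2765 with a replicate block within fraction and 2218, 219 and 56 with the compared libraries alone. DESeq2 called 1532 in input, 1003 on light and 1002 on heavy polysomes. With each arm and number left out the counts ran from 419 (without shDap5 1) to 2005 (without shDap5 2) in input, from 158 (without NSi 2) to 440 on light (648 without the shDap5 input numbered 2) and from 172 (without NSi 2) to 777 on heavy polysomes, and without the shDap5 input numbered 2 the input count was 1712. List genes called, 7, 3 and 5, became 13, 7 and 14 with the number as a block and 25, 20 and 27 with the block within fraction. DESeq2 called 11, 5 and 12 (11%, 5.05% and 11.7% of the list genes it tested, against 9.48%, 6.41% and 6.01% of all genes). With the compared libraries alone edgeR called 21, 1 and 0 (22.8%, 1.18% and 0%, against 15.2%, 1.58% and 0.423% of all genes). At an unadjusted p under 0.05 that fit had 40, 14 and 13 list genes. In the reported edgeR fit the list genes called ran from 2 to 12, 1 to 2 and 1 to 11 with an arm and number left out. They numbered 11 in input and 4 on light without the shDap5 input numbered 2. Genes called for heavy against light in shDap5, 6706, ran from 4227 (without shDap5 1) to 6610, and numbered 6979 without the shDap5 input numbered 2. The cause of these shifts was not tested. Slc26a9 in NSi and Hvcn1 are limited by few counts.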
